A study of Homo sapiens with 6 samples.

Results

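Interferon-stimulated genes are the genes that cells switch on when type I, II or III interferon binds its receptor. They were followed here in Jurkat cells, an established line of human T cell acute lymphoblastic leukaemia, kept for 3 h in suspension or inside a collagen gel. The genes were taken by symbol from a list of 41 antiviral effectors, sensors and regulators. Of these, 40 had a probe set on the array, out of 17687 genes measured in all, and STAT2 was not measured. The study holds 6 Affymetrix arrays, 3 of suspension cultures and 3 of cells in a 3D matrix, each labelled as biological replicates 1 to 3. For the 3D group, cells were mixed into bovine type I collagen at 1.7 mg/mL, the gel set for 1 h, and warm medium covered it for 2 h more. Both groups were the same line in RPMI with 10% FBS and carried no other treatment. The suspension group is labelled as control, and the labels describe no step in which its cells were warmed in a gel mix without collagen, so the matrix and its handling cannot be told apart. The titles call the replicates biological without saying what was repeated, so p-values measure the spread between these arrays.

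Type I interferons bind the receptor chains IFNAR1 and IFNAR2, whose JAK kinases activate STAT proteins, STAT2 among them. With IRF9 these form the complex ISGF3, which binds interferon-stimulated response elements before the target genes. Type II interferon acts through gamma-activated sites, and IRF1 and IRF7 extend the programme. The products sense viral RNA, block its translation, degrade it, trap virus particles or feed back on the signal. Many of these genes are also transcribed at a low level without added interferon.

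The 40 measured genes did not share a direction. None passed limma at a Benjamini-Hochberg adjusted p of 0.05, with adjusted p-values from 0.330 to 0.987, and the background was 0% (0 of 17687 genes). Values are RMA log2 levels, differences are 3D minus suspension, and each error is the standard error from limma with n = 3 per group. The median difference of the 40 was 0.11, with an interquartile range from -0.11 to 0.32, beside a median of -0.02 and a range from -0.18 to 0.16 for all genes. Higher values in 3D were measured for 23 and lower values for 17. The highest differences were those of SAMD9L, DDX60L, SAMD9 and DDX60, from 0.69 to 0.78, and the lowest was that of BST2, at -0.62. Genes often used to read an interferon response lay on both sides of 0, with IFI44 at 0.51, IFIT3 at 0.40, and RSAD2 and OASL at -0.30. ISG15 differed by -0.16 ± 0.16, with a 95% interval from -0.51 to 0.19. IFIT1 differed by 0.16 ± 0.18, from -0.24 to 0.56, and MX1 by 0.08 ± 0.19, from -0.34 to 0.50. All of these probe sets had means under 6, where RMA shrinks differences, so the intervals set no limit on the change in transcripts.

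At an unadjusted p under 0.05, 4 members were higher and 1 was lower, or 10% and 2.5% of the 40, beside a background of 5.9% of all genes higher and 3.97% lower. Without suspension replicate 2 the counts were 6 higher and 4 lower, beside 4.7% and 3.94% of all genes. Without 3D replicate 1 they were 6 and 3, beside 6.61% and 4.74%, and without 3D replicate 3 they were 2 and 1, beside 3.86% and 2.22%. The 3 arrays of 1 group all lay above the 3 of the other for 4 members higher in 3D and 3 lower, or 10% and 7.5%, beside 8.28% and 8.03% of all genes. These last shares are near the background. The level of the middle member was 5.81, 5.77 and 5.98 in suspension replicates 1 to 3 and 5.85, 5.95 and 6.08 in 3D, so the groups overlapped. Between same-numbered arrays the median difference of the members was 0.04, 0.09 and 0.17, beside -0.04, 0.05 and -0.03 for all genes. Without 3D replicate 3 the median difference was 0.01, and without 3D replicate 2 it was 0.18.

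**Figure D1:**
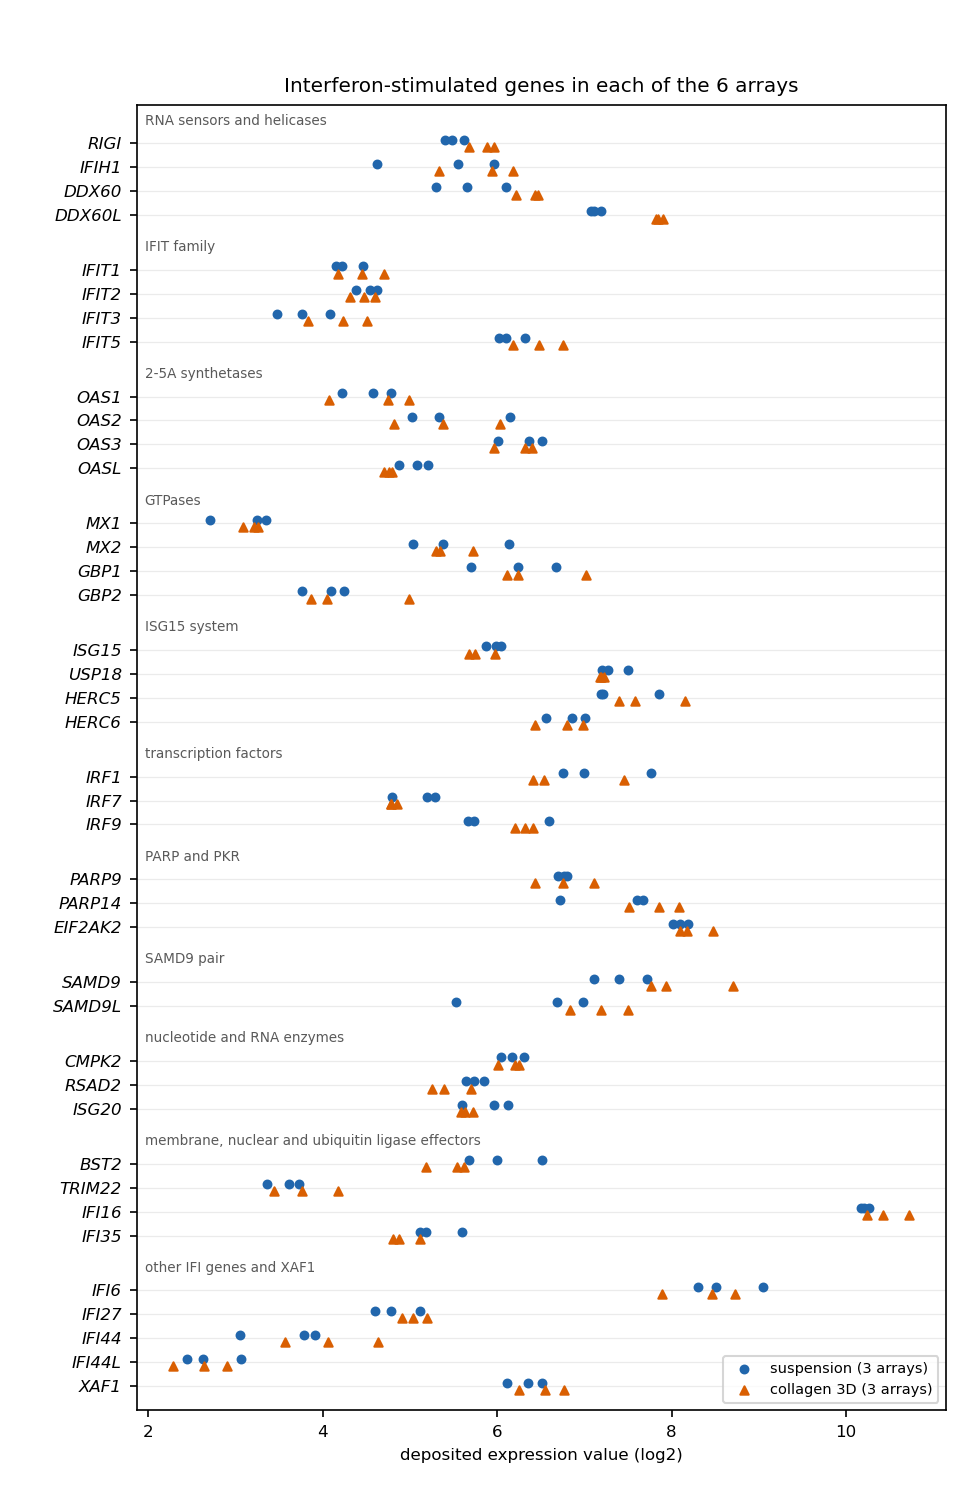
Deposited log2 level of the 40 measured interferon-stimulated genes, 1 row per gene and grouped by role, with blue circles for the 3 suspension arrays and orange triangles for the 3 arrays of cells in 3D. The triangles lie to the right of all circles for DDX60L, DDX60, SAMD9 and RIGI and to the left for BST2, OASL and IFI35, while circles and triangles overlap in the other rows; levels of different rows come from different probes and are not compared.

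**Figure D2:**
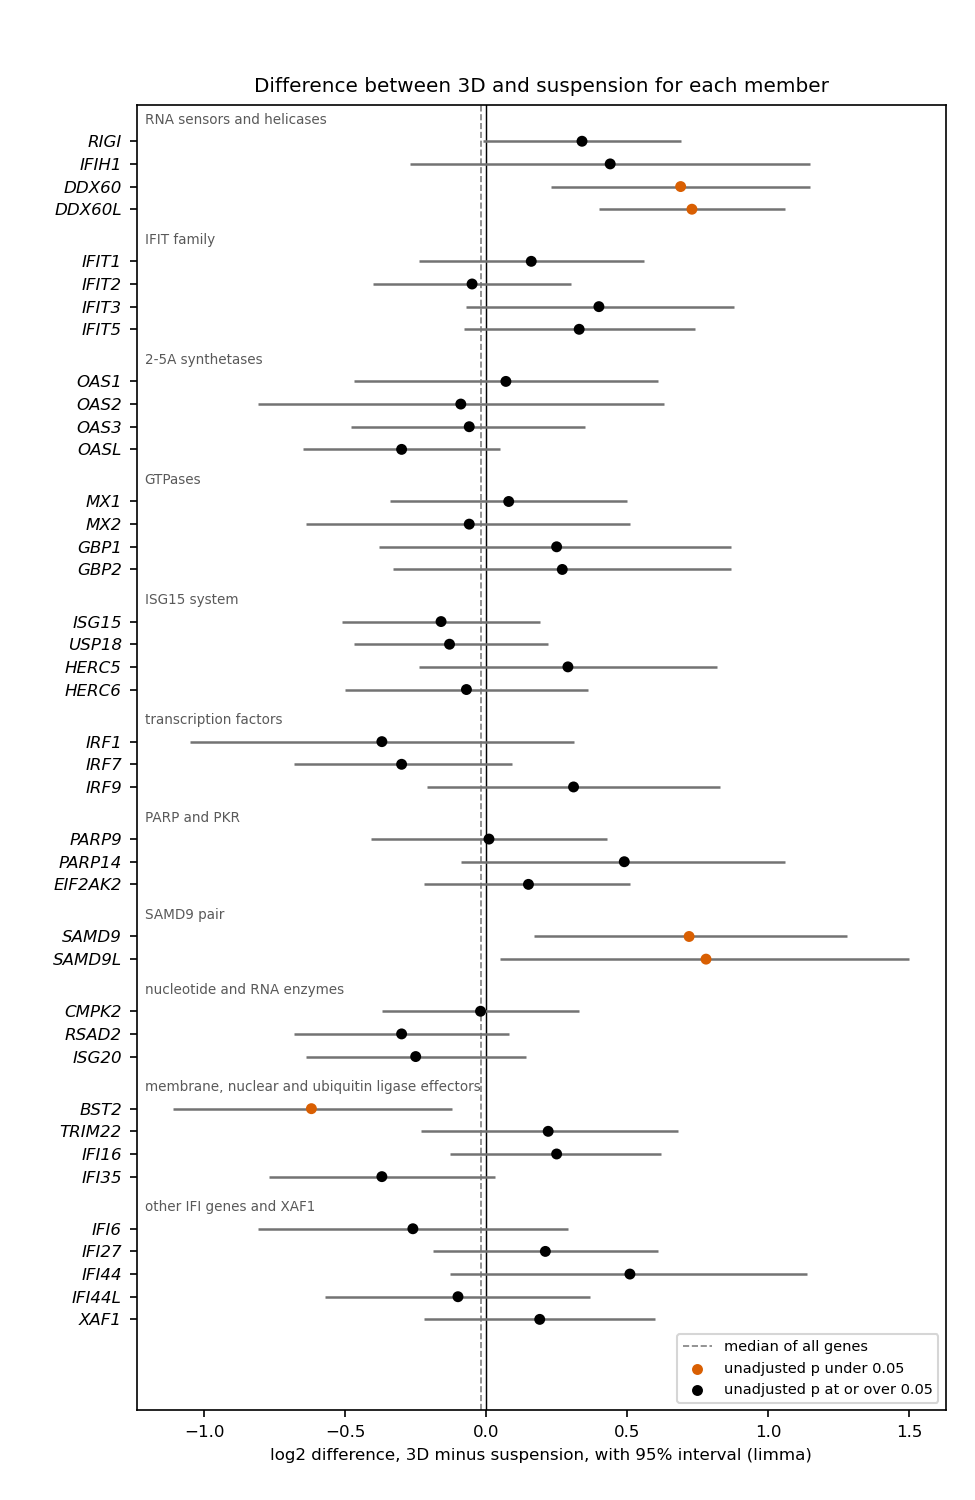
Log2 difference, 3D minus suspension, for each of the 40 genes by role, with the 95% interval from limma (n = 3 arrays per group). Orange points mark the 5 genes at an unadjusted p under 0.05, the dashed line is the median of all 17687 genes at -0.02, and no gene passed after adjustment.

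All 4 cytoplasmic RNA sensors and helicases had higher values in 3D, with a median difference of 0.56. So did all 3 PARP and PKR genes and the 2 SAMD9 genes, while all 3 nucleotide and RNA enzymes had lower values. DDX60L, a DExD/H-box helicase like protein, read 7.19, 7.11 and 7.08 in suspension replicates 1 to 3 and 7.82, 7.84 and 7.90 in 3D. The 3D arrays lay above all suspension arrays, and each group was tight, at 7.13 ± 0.06 and 7.86 ± 0.04 (SD, n = 3). The difference was 0.73 ± 0.15, or 1.66-fold, with a 95% interval from 0.40 to 1.06 and an adjusted p of 0.330 (limma). DDX60, the helicase that promotes RIG-I signalling, read 5.30, 5.66 and 6.10 in suspension and 6.22, 6.43 and 6.47 in 3D. Its groups did not overlap either, and the suspension arrays were spread more widely (SD 0.40) than the 3D arrays (SD 0.14). The difference was 0.69 ± 0.21, or 1.61-fold, with an adjusted p of 0.399.

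RIGI, the receptor for short double-stranded RNA with a triphosphate end, read 5.48, 5.62 and 5.40 in suspension and 5.68, 5.96 and 5.88 in 3D. All 3D arrays were above all suspension arrays, by a small margin, and the difference was 0.34 ± 0.16 (95% interval -0.01 to 0.69, adjusted p = 0.517). IFIH1, which encodes MDA5, the receptor for long double-stranded RNA, read 4.62, 5.55 and 5.97 in suspension and 5.34, 5.94 and 6.18 in 3D. Here the groups overlapped, and the difference of 0.44 ± 0.32 was smaller than the spread within suspension (SD 0.69). Between same-numbered arrays it was 0.72, 0.39 and 0.20. RIGI and IFIH1 had mean levels under 6, at 5.67 and 5.60.

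SAMD9 and SAMD9L, neighbouring genes whose products restrain growth and poxvirus replication, had a median difference of 0.75. SAMD9 read 7.11, 7.40 and 7.72 in suspension and 7.76, 7.94 and 8.70 in 3D. Its groups did not overlap, though 3D replicate 1 stood only just above suspension replicate 3. The difference was 0.72 ± 0.25, or 1.65-fold, with a 95% interval from 0.17 to 1.28 and an adjusted p of 0.417. It was 0.44 without 3D replicate 3. SAMD9L read 5.53, 6.98 and 6.69 in suspension and 6.84, 7.19 and 7.50 in 3D. Suspension replicate 1 was far below the other 5 arrays, and suspension replicate 2 was above 3D replicate 1. The difference was 0.78 ± 0.33, or 1.71-fold, with an adjusted p of 0.495, and it was 0.34 without suspension replicate 1 and 1.07 without suspension replicate 2.

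The promoters of DDX60, DDX60L, SAMD9 and SAMD9L are shown because these 4 had the highest differences of the members. Each pair also lies side by side on its chromosome. BST2, with the lowest difference, and IFIT1 and ISG15, with differences of 0.16 and -0.16, are set beside them. Each line is the 250 bases before the gene's start in RefSeq (GRCh38.p14), written 5′ to 3′ on the gene's own strand. Capitals mark the core of the interferon-stimulated response element, searched as GAAANNGAAA on both strands.
DDX60: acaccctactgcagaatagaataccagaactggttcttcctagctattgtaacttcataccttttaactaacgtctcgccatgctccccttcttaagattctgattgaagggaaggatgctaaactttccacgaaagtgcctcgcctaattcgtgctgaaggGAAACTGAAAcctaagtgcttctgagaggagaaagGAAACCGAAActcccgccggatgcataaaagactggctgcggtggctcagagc
DDX60L: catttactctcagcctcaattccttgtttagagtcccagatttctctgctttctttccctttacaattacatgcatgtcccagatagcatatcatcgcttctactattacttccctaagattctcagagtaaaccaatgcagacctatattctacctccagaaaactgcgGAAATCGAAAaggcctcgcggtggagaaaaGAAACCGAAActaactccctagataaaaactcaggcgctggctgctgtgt
SAMD9: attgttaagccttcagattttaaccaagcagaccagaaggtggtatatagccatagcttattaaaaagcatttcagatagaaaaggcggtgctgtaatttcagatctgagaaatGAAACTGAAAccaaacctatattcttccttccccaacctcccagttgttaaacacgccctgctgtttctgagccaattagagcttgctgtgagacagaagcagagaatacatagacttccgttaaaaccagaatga
SAMD9L: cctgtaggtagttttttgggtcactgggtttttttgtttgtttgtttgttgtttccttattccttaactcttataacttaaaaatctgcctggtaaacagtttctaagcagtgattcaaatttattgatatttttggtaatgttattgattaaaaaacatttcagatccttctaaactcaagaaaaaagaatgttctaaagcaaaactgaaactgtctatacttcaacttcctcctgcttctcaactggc
BST2: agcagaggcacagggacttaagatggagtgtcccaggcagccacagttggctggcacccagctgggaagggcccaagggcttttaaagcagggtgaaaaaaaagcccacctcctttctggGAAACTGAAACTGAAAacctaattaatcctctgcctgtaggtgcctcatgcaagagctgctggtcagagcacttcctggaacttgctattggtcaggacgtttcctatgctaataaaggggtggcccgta
IFIT1: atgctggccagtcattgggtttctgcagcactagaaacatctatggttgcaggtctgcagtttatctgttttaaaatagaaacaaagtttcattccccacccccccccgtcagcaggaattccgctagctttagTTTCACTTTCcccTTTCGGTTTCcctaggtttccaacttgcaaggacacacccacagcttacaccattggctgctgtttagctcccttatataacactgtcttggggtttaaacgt
ISG15: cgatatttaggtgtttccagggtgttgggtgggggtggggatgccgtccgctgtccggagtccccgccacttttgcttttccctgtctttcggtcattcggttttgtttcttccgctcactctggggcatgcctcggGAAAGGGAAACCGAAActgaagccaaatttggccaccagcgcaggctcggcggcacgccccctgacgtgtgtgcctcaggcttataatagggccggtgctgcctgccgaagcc

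These windows lie at chr4:168318753-168319002 (DDX60), chr4:168480493-168480742 (DDX60L), chr7:93117980-93118229 (SAMD9), chr7:93148386-93148635 (SAMD9L) and chr19:17405631-17405880 (BST2), all on the minus strand. IFIT1 lies at chr10:89392373-89392622 and ISG15 at chr1:1013247-1013496, both on the plus strand. The core occurred 2 times before DDX60 and DDX60L, with the nearest match 44 and 41 bases before the start. It occurred 1 time before SAMD9, 127 bases from the start, and 0 times before SAMD9L, which says only that these letters are not in this window. BST2 and ISG15 held 2 overlapping matches each, and IFIT1 held 2 separate ones on the other strand. Among these genes, chosen by their differences, the match stood before some with high, low and small differences, and SAMD9L, with the highest, had none. Whether the match goes with the difference was not tested.

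Of the 40 genes, 32 had an entry in the promoter table. The response element core stood in 21 of them (65.6%), against 507 of 14250 measured genes with an entry (3.56%). The 21 with the core had a median difference of 0.21, with 14 higher and 7 lower, and the 11 without it had one of 0.15, with 7 higher and 4 lower. The gamma-activated site, searched as TTCNNNGAA, stood in 9 of the 32 (28.1%), against 1127 of 14250 genes (7.91%). Its 9 genes had a median difference of 0.08 and the other 23 one of 0.19. The pair of motifs may overlap within a window. A match is a description of the sequence and not a measured binding site.

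The IFIT family, tetratricopeptide proteins that bind foreign RNA and stop its translation, had a median difference of 0.24 and 3 of 4 members with higher values. IFIT3, the partner that stabilises IFIT1, read 3.77, 3.48 and 4.09 in suspension and 4.51, 3.83 and 4.23 in 3D. The groups overlapped and the difference was 0.40 ± 0.22 (95% interval -0.07 to 0.88, adjusted p = 0.557). It was 0.24 without 3D replicate 1 and 0.26 without suspension replicate 2. IFIT5, which binds the ends of small RNAs, read 6.10, 6.02 and 6.32 in suspension and 6.48, 6.18 and 6.76 in 3D, a difference of 0.33 ± 0.19 (adjusted p = 0.572) that was 0.19 without 3D replicate 3. One 3D array of IFIT5 lay within the suspension range. IFIT1 read 4.22, 4.16 and 4.46 against 4.18, 4.45 and 4.70, and IFIT2 differed by -0.05 ± 0.16.

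The oligoadenylate synthetases, which make the activator of RNase L, had a median difference of -0.08. OASL, the catalytically inactive member that acts with RIG-I, read 5.21, 4.88 and 5.08 in suspension and 4.71, 4.80 and 4.76 in 3D. All 3D arrays lay below all suspension arrays, by less than 0.1 at the closest, and the difference was -0.30 ± 0.16 (95% interval -0.65 to 0.05, adjusted p = 0.553). OAS1 differed by 0.07 ± 0.24, OAS2 by -0.09 ± 0.33 and OAS3 by -0.06 ± 0.19. OASL had the lowest difference of the 4, and no test compared it with the rest.

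Among the dynamin-like and guanylate-binding GTPases, which trap viral capsids or attack pathogen compartments, the median difference was 0.16. GBP2 differed by 0.27 ± 0.27 and GBP1 by 0.25 ± 0.28, MX1 by 0.08 ± 0.19 and MX2 by -0.06 ± 0.26. Each error was at least as large as its difference. The ubiquitin-like ISG15 system had a median difference of -0.10. ISG15, the modifier itself, read 5.87, 6.04 and 5.99 in suspension and 5.68, 5.75 and 5.98 in 3D. USP18, which removes it and shuts off the receptor, differed by -0.13 ± 0.16. HERC5, its main ligase, differed by 0.29 ± 0.24 and HERC6 by -0.07 ± 0.19.

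The transcription factors had 3 measured members with a median difference of -0.30. IRF1, a transcription factor that interferon gamma induces early, read 7.76, 6.76 and 7.00 in suspension and 7.46, 6.54 and 6.41 in 3D, a difference of -0.37 ± 0.31 (95% interval -1.05 to 0.31). Suspension replicate 1 and 3D replicate 1 were the high arrays of their groups, and 3D was lower in each same-numbered pair, by -0.29, -0.22 and -0.59. IRF7, which drives interferon alpha genes, read 5.20, 4.80 and 5.29 in suspension and 4.85, 4.78 and 4.78 in 3D, a difference of -0.30 ± 0.17. IRF9, the DNA-binding part of ISGF3, read 6.60, 5.67 and 5.74 in suspension and 6.41, 6.32 and 6.20 in 3D. Its difference of 0.31 ± 0.24 went the other way, and suspension replicate 1 was above all 3D arrays.

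PARP14, a mono-ADP-ribosyltransferase, read 6.72, 7.67 and 7.60 in suspension and 7.51, 7.85 and 8.09 in 3D. Suspension replicate 1 was the low array here, as for SAMD9L, and the difference of 0.49 ± 0.26 (adjusted p = 0.557) was 0.18 without it. PARP9, encoded nearby, differed by 0.01 ± 0.19. EIF2AK2, the kinase PKR that halts translation on double-stranded RNA, read 8.19, 8.02 and 8.10 in suspension and 8.47, 8.18 and 8.10 in 3D, a difference of 0.15 ± 0.16. The nucleotide and RNA enzymes had a median difference of -0.25, with 3 of 3 lower in value. RSAD2, or viperin, which makes a chain-terminating nucleotide, differed by -0.30 ± 0.17, the exonuclease ISG20 by -0.25 ± 0.18 and CMPK2, a mitochondrial nucleotide kinase, by -0.02 ± 0.16.

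BST2, or tetherin, which holds budding virus particles at the cell surface, read 6.51, 5.68 and 6.0 in suspension and 5.54, 5.62 and 5.19 in 3D. The 3D arrays lay below all suspension arrays, though suspension replicate 2 was only just above 3D replicate 2. The difference was -0.62 ± 0.22, with a 95% interval from -1.11 to -0.12 and an adjusted p of 0.427, at a mean level under 6. It was -0.39 without suspension replicate 1 and -0.81 without suspension replicate 2. IFI35, a leucine zipper protein of the interferon response, read 5.60, 5.12 and 5.19 in suspension and 5.12, 4.81 and 4.88 in 3D, a difference of -0.37 ± 0.18 (adjusted p = 0.528) that was -0.22 without suspension replicate 1. Its highest 3D array and its lowest suspension array were both 5.12 after rounding. IFI16, a nuclear DNA sensor, read 10.20, 10.26 and 10.17 in suspension and 10.72, 10.24 and 10.42 in 3D. Its groups overlapped through 3D replicate 2, and the difference was 0.25 ± 0.17. TRIM22, a ubiquitin ligase, differed by 0.22 ± 0.21.

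IFI44, a cytoplasmic protein of the antiviral response, read 3.91, 3.05 and 3.79 in suspension and 4.06, 3.57 and 4.64 in 3D, a difference of 0.51 ± 0.29 (95% interval -0.13 to 1.14, adjusted p = 0.576). Its groups overlapped, and the difference was 0.23 without 3D replicate 3 and 0.24 without suspension replicate 2. IFI44L, its neighbour and relative, differed by -0.10 ± 0.21. IFI6, a mitochondrial and endoplasmic reticulum protein, read 9.05, 8.30 and 8.51 in suspension and 8.73, 8.46 and 7.89 in 3D, a difference of -0.26 ± 0.25. IFI27 differed by 0.21 ± 0.18 and the proapoptotic XAF1 by 0.19 ± 0.19. In all, 21 of the 40 members had a mean level under 6, as did 9345 of all 17687 genes, and RMA shrinks differences at low levels. The cut of 6 was chosen and no detection call was made, so whether these members were expressed was not tested.

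Same-numbered arrays were taken as pairs because their deviations from the group means all correlated above 0.1, and a block for the number removes what they share. With the block, 0 members passed an adjusted p of 0.05 and the smallest was 0.0715 for DDX60L, beside 0.0905% of all genes (16 of 17687). The next were SAMD9 at 0.0802, DDX60 at 0.0886, SAMD9L at 0.0944 and BST2 at 0.137. At an unadjusted p under 0.05 the block gave 10 members higher and 3 lower, or 25% and 7.5%, beside 10.0% and 7.36% of all genes. The 3D array was the higher of all 3 pairs for 11 members and the lower for 9, or 27.5% and 22.5%, beside 20.3% and 19.8% of all genes. DDX60L was 0.64, 0.73 and 0.82 higher in pairs 1 to 3, DDX60 0.92, 0.78 and 0.37, SAMD9 0.65, 0.54 and 0.98, and SAMD9L 1.31, 0.21 and 0.81. BST2 differed by -0.97, -0.06 and -0.82, so pair 2 showed almost no difference.

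With the block and only the 8342 genes of mean level 6 or more, which was added once the values were known, 5 of the 19 members tested passed, all higher in 3D. The background there was 10.6% of genes higher and 3.78% lower. The 5 were DDX60L (adjusted p = 0.00153), SAMD9 (0.00203), DDX60 (0.00306), SAMD9L (0.00306) and PARP14 (0.0241). DDX60 had a mean of 5.69 in suspension and 6.37 in 3D, so it met the filter only through its 3D arrays, and its call there supports nothing. BST2, at 6.06 in suspension and 5.45 in 3D, was left out through its 3D arrays. The filter also left out IFI35, lower in 3D, and RIGI, IFIH1, IFIT3 and IFI44, higher in 3D. The shared direction of the 5 is therefore not read as a result. The filtered fit had 2 residual degrees of freedom and 25 borrowed from other genes, so its errors rest mostly on the shared spread. With the block and without pair 2, SAMD9L (1.06, adjusted p = 0.0269) and BST2 (-0.89, adjusted p = 0.0370) passed, beside 0.746% of all genes higher and 0.102% lower. Without pair 1 or pair 3 no member did.

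**Figure D3:**
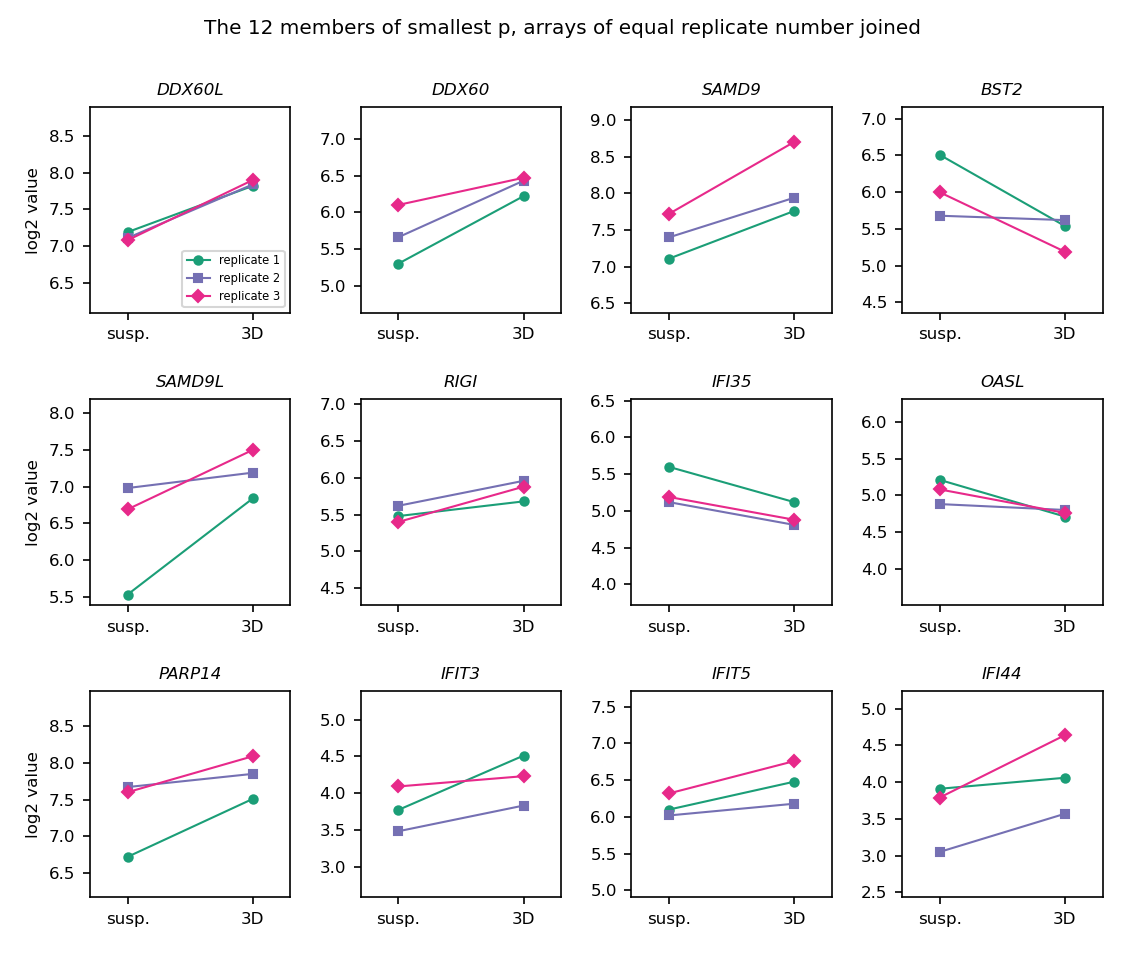
Deposited log2 level in suspension and in 3D for the 12 members of smallest p, 1 panel each, with a line joining the arrays of each replicate number and the same span of log2 units in every panel. The 3 lines of DDX60L nearly coincide, those of DDX60 and SAMD9L start far apart in suspension and lie closer in 3D, and in BST2 replicates 1 and 3 slope down while replicate 2 is nearly level.

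Many of these genes sit in clusters. Of 13 pairs of members with at most 5 coding genes between them on 1 chromosome, 8 had differences of the same sign. DDX60 and DDX60L on chromosome 4 (0.69 and 0.73) and SAMD9 and SAMD9L on chromosome 7 (0.72 and 0.78) were close in size. GBP1 and GBP2 on chromosome 1 (0.25 and 0.27) were close as well. IFI44L and IFI44 on the same chromosome had -0.10 and 0.51, and HERC6 and HERC5 on chromosome 4 had -0.07 and 0.29. The paired helicases and the SAMD9 genes are similar in sequence, and whether probes of 1 member also bind the other was not tested.

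Gene span moved with the difference over all genes, so it is given beside these values. DDX60L and DDX60 were the longest members, at 123.8 and 109.7 kb, beside a median of 21.28 kb for members and 25.89 kb for all genes. Spearman's correlation between span and difference was 0.31 over the 40 members and 0.25 over all genes, across genes measured on the same 6 arrays. Among members the relation was not even, since the 20 longer ones had a median difference of 0.04 and the 20 shorter ones one of 0.2. With the trend on span removed from each array the median member difference was 0.09. With the trend removed, DDX60L differed by 0.66, DDX60 by 0.63, SAMD9 by 0.73 and SAMD9L by 0.79. By array, 3D replicate 3 was the highest of the 6 for 15 of 40 members (37.5%) and for 18.9% of all genes, and suspension replicate 2 was the lowest for 11 members (27.5%) and for 20.3% of all genes.

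Upstream of these targets, the interferon genes themselves were all dim: 20 of 21 were measured, all 20 with means under 6, and the median difference was 0.07. Of them 2 were higher at an unadjusted p under 0.05, 0 were lower and 0 passed after adjustment. The background at the unadjusted threshold, for this and the other pathway lists, was 5.9% of all genes higher and 3.97% lower. IFNA13 differed by 0.47 ± 0.19 (adjusted p = 0.476) and IFNA5 by 0.39 ± 0.18, both alpha interferons with near-identical relatives whose probes may share signal. IFNL3, a lambda interferon, differed by -0.37 ± 0.20, IFNA6 by 0.30 ± 0.17 and IFNW1 by 0.28 ± 0.18. IFNB1, the interferon that fibroblasts and infected cells make first, read 3.19, 3.35 and 3.19 in suspension and 3.49, 3.35 and 3.49 in 3D, a difference of 0.20 ± 0.15. These levels lie near the bottom of the array's range, which ran from 1.97 to 13.58.

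The receptors and JAK-STAT genes had 10 measured members, and 0 passed at either an adjusted or an unadjusted p of 0.05. Both chains of the type I receptor gave a signal. IFNAR1 read 8.23, 8.01 and 8.27 in suspension and 8.20, 8.21 and 8.56 in 3D, and IFNAR2 read 10.41, 10.20 and 10.29 and then 10.49, 10.47 and 10.46. Their differences were 0.15 ± 0.17 and 0.17 ± 0.15. STAT3, which carries cytokine signals, differed by -0.39 ± 0.20, IFNGR2 by -0.21 ± 0.18, IFNLR1 by -0.22 ± 0.21 and IFNGR1 by 0.17 ± 0.17.

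The genes of nucleic acid sensing and interferon induction had 18 of 20 measured and a median difference of -0.09. At an unadjusted p under 0.05, 1 was higher and 0 were lower, beside 5.9% of all genes higher and 3.97% lower. The higher one was TLR3, the endosomal receptor for double-stranded RNA, which read 4.80, 5.41 and 5.54 in suspension and 5.54, 5.78 and 6.40 in 3D. Its difference was 0.65 ± 0.26 (95% interval 0.09 to 1.22, adjusted p = 0.458). The groups of TLR3 were not separate, and its mean was under 6, at 5.58. IRF3, the factor that starts interferon beta transcription, differed by -0.37 ± 0.17, STING1 by -0.30 ± 0.25, MYD88 by -0.28 ± 0.23 and TLR8 by 0.29 ± 0.17. Among negative regulators, 11 of 12 were measured and 0 passed at an unadjusted p of 0.05, with a median difference of -0.06. SOCS1, the JAK inhibitor that STATs induce, differed by -0.41 ± 0.26, PTPN6 by -0.38 ± 0.24, IRF2BP1 by -0.31 ± 0.16, PTPN2 by 0.29 ± 0.16 and PIAS1 by 0.16 ± 0.19. With the replicate block, 2 interferon genes were higher and 1 lower at an unadjusted p under 0.05. The counts were 0 and 1 for receptors and JAK-STAT, 1 and 1 for sensing and induction, and 0 and 2 for negative regulators. All genes gave 10.0% and 7.36%, and 0 genes of these lists passed after adjustment.

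A further list of 44 interferon-stimulated genes, none of them members, gave a median difference of -0.01 over 40 measured, with 19 higher and 21 lower. The differences ran from -0.57 to 0.49. None had an unadjusted p under 0.05, beside 5.9% of all genes higher and 3.97% lower. With the replicate block, 2 of the 40 were higher and 2 lower at that threshold, beside 10.0% and 7.36% of all genes. The smallest p with the block was that of LY6E, which was lower in 3D by -0.48, -0.67 and -0.56 in pairs 1 to 3 (limma with the block, adjusted p = 0.0990). Of the 5 with the smallest p without the block, SP100, a nuclear body protein, differed by 0.49 ± 0.26, SLFN11 by 0.36 ± 0.20, PLSCR1 by 0.34 ± 0.20, EPSTI1 by 0.30 ± 0.18 and TRIM14 by -0.37 ± 0.22. That median lies beside -0.02 for all genes and 0.11 for the members.

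**Figure D4:**
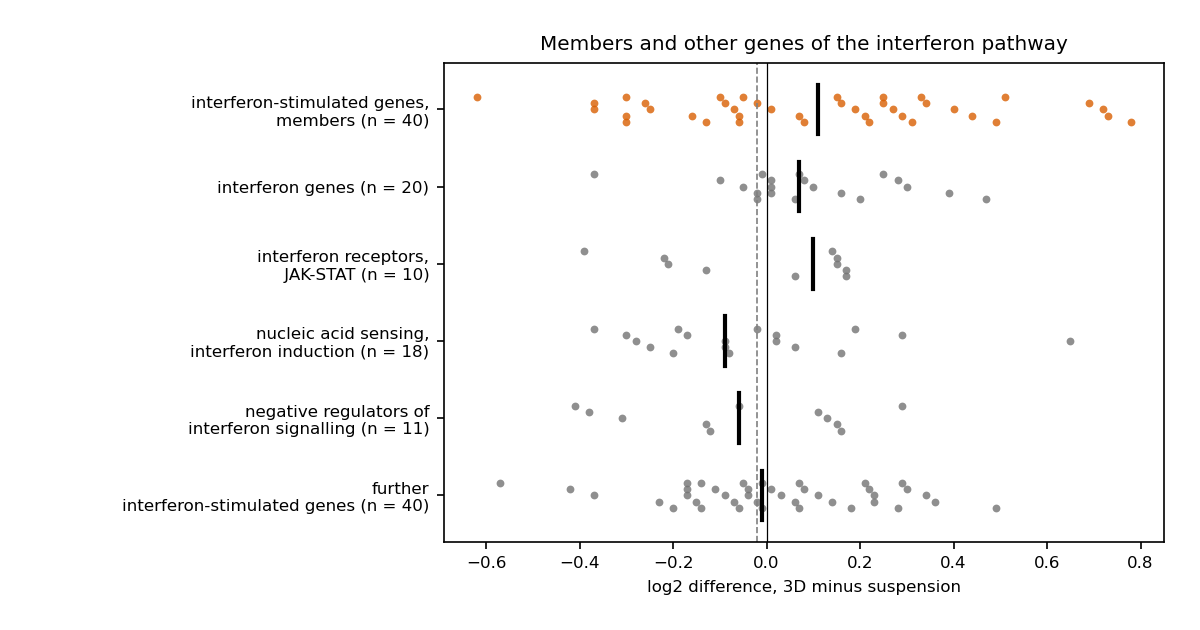
Log2 difference, 3D minus suspension, for each measured gene of the member list and of 5 other lists of the interferon pathway (n = 10 to 40 genes each), with a black bar at each list's median and a dashed line at the median of all genes, -0.02. The medians lie between -0.09 and 0.11, and the widest spread is that of the members, from -0.62 to 0.78.

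The labelled cell type was checked on marker genes. All 13 T cell markers were measured, with 0 means under 6 and array medians from 9.06 to 9.37. Of 47 markers of other cells 39 were measured, 31 of them under 6, with array medians from 3.96 to 4.31. The other 8 included CD79A, a B cell marker, at 8.28 and CD1C, a dendritic cell marker, at 7.25. Myeloid and dendritic markers, which include those of the plasmacytoid cells known for making interferon, had array medians from 3.53 to 3.69. The median difference was -0.21 for T cell markers and -0.09 for those of other cells. In bulk RNA, fewer cells expressing a gene and less RNA of it per cell cannot be told apart.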

How the data were processed

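RNA of 3 suspension and 3 3D samples, extracted with a column kit and labelled with the GeneChip WT PLUS kit per the labels' protocols, was measured on 6 arrays. The deposited values are log2 levels per probe set, made by the authors with RMA in the Transcriptome Analysis Console, per the submitters' processing notes; versions, genome build and annotation are not given in the sources used here. They were used as deposited. Of 21448 probe sets, 17709 had 1 gene symbol, 0 several and 3739 none. For 20 genes with several probe sets the one with the highest mean was kept, leaving 17687 genes. Array medians ran from 5.55 to 5.64, and the 6 arrays limit the precision.

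The groups were compared with limma 3.58.1 (R 4.3.3), lmFit and eBayes, two-sided, without a filter on dim genes or a block, adjusted by Benjamini-Hochberg over all genes at 0.05, with 4 residual and 6.79 prior degrees of freedom. It was also run on simulated data with independent errors and no shared deviation between same-numbered arrays. That run therefore sets no limit on the size of change missed here. Plots were made with matplotlib 3.10.9 under Python 3.11.15. Full values were given for the 12 members of smallest p, array values also for the 4 of highest mean and for transcription factors, and up to 5 genes of smallest p from each pathway list, with IFNB1, IFNAR1 and IFNAR2. LY6E, named for its p with the block, was added once the values were known. Members, lists and this rule were chosen with earlier results of these data known.

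Replicate numbers in the titles were checked for pairing. Deviations from group means correlated at 0.521, 0.12 and 0.337 between same-numbered arrays, all over 0.1, so the numbers were taken as pairs. Suspension 2 with 3D 3 (0.23) and suspension 3 with 3D 2 (0.149) also passed 0.1, so every blocked result rests on this choice. Alternatives were the replicate block, quantile normalization, centring, a mean of at least 6, a trend on span, no moderation, a variance trend, the lowest-mean probe set and leaving out each array.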

Additional observations from a re-analysis of the deposited data

How the results depend on the processing

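The 12 members of smallest p gave 204 values under the alternatives, of which 0 reversed, 7 passed the threshold newly and 197 kept their direction and side. No member passed without the replicate block under any alternative run. With the replicate block and without pair 2, 2 passed, beside 132 genes higher and 18 lower of 17687. With the block and a mean of at least 6, 5 passed, of which DDX60 met the filter only through its 3D arrays, beside 884 higher and 315 lower of 8342. That filter left out BST2 through its 3D arrays. Both settings were chosen after seeing the data. The count of members at an unadjusted p under 0.05, 5 as reported, was 13 with the replicate block, beside 10.0% of all genes higher and 7.36% lower. It was 3 to 10 when 1 array was left out, with shares of all genes for both ends given above. With the block it was 18 and 9 without pairs 2 and 3, and 9 of 19 with a mean of at least 6. For these last settings the share of all genes was not counted, so the counts show nothing particular to the members. Members without overlap, 7 as reported, were 3 of 19 with a mean of at least 6 and 9 to 13 when 1 array was left out, where fewer arrays overlap less by construction. The share of all genes without overlap was counted only over all genes and 6 arrays, at 8.28% higher and 8.03% lower. The other counts therefore have no background and are not read as a result about the members. The matching count of members with the same sign in every pair, under the replicate block, was 20, beside 20.3% of all genes higher and 19.8% lower. The median difference, 0.11 as reported, was 0.25 over the 19 members with a mean of at least 6, and 0.01 to 0.18 when 1 array was left out, beside a spread of 0.115 (SD) of the member median between replicates. The cause of these shifts was not tested, and the median of all genes under the filter on mean level was not taken. The mean level was under 6 for 21 of 40 members, and how small a change could be detected there was not tested.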
